A study of Homo sapiens with 8 samples.

Results

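VHL is the substrate receptor of a cullin-RING ubiquitin ligase, and 6 genes of this ligase were followed here: VHL, ELOB, ELOC, CUL2, RBX1 and NEDD8. They were taken by gene symbol from 43682 symbols in the RNA count tables of the series, where all 6 were found. In the complex, VHL binds elongin C (ELOC), which pairs with elongin B (ELOB). The elongins connect VHL to the scaffold cullin 2 (CUL2), whose other end holds the RING protein RBX1 that recruits the ubiquitin-conjugating enzyme. NEDD8 is a ubiquitin-like protein that is joined to the cullin and switches the ligase on. When oxygen is present, prolyl hydroxylases mark the alpha subunits of hypoxia-inducible factors (HIF), VHL binds the marked subunits, and the ligase tags them for destruction. Loss of VHL is the defining lesion of clear cell renal carcinoma, so the question was what happened to the transcripts of the other subunits when VHL was put back.

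The RNA came from UM-RC-2, an established human line of clear cell renal cell carcinoma that carries a missense mutation of VHL per the labels. All cells had received a lentivirus and been selected with blasticidin at 10 µg/ml, and they stably expressed either VHL or a construct labelled VEC. There were 4 libraries, VEC and VHL in each of replicates 1 and 2. Both replicate 1 libraries are labelled total RNA and both replicate 2 libraries polyA RNA, so VHL was set against VEC within each replicate number. The labels do not say whether the cells were clones or pools, or whether the replicates were separate cultures. P-values therefore rest on the spread between these libraries, which may be technical. That spread was taken as a trend over all genes, not gene by gene. The count under the symbol VHL sums the introduced and the mutant endogenous transcripts.

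Total counts lay between 16230291 and 50027348 per library. Across the 21673 genes that averaged 20 counts or more, the libraries of the same number were close on the log2(CPM + 1) scale (r = 0.991 and 0.978), and those of the same group were not (r = 0.502 for VEC and 0.531 for VHL). These values are across genes, which are not independent replicates. The share of pseudogenes among the counts was 1.37% (VEC) and 2.07% (VHL) in replicate 1, against 31.3% and 24.9% in replicate 2. Of 8 renal carcinoma markers, 7 had counts in every library, and NNMT was at 0 in both replicate 1 libraries. PAX8, a transcription factor of renal epithelium, was measured at between 40.8 and 75.9 CPM. Of 8 markers of other cell types, CD3E, PECAM1 and VWF were at 0 in all 4 libraries, ALB had at most 1 count, and PTPRC and DCN had counts in replicate 2 alone. The other 2 had counts in every library: CD68, a macrophage marker, at between 11.6 and 42.2 CPM, and ACTA2, a smooth muscle actin, at between 0.778 and 2.74 CPM. Neither was called (adjusted p = 0.553 and 0.991, edgeR with the block), and their part in the results was not tested. CA9, a HIF target used as the check of VHL function, had 1562 counts with VEC against 29 with VHL in replicate 1 and 2820 against 57 in replicate 2, and fell by 5.45 ± 0.29 on the log2 scale (SE, n = 2 per group, adjusted p = 2.04e-76, edgeR with the replicate number as a block).

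For VHL, the receptor itself, replicate 1 gave 37.1 CPM with VEC against 146 CPM with VHL (858 and 2726 counts), and replicate 2 gave 88.9 against 151 CPM (4053 and 6175 counts). CPM scale the counts to the size of the library after adjustment by the trimmed mean of M-values (TMM). VHL was higher in the VHL library within each replicate. A change of the same sign in both replicates was common, found in 14317 of 24417 genes tested. The increase was 3.94-fold in replicate 1 (95% interval 3.65 to 4.26) and 1.70-fold in replicate 2 (1.63 to 1.77). These intervals are exact binomial intervals and cover counting error only. The VHL libraries of the 2 replicates differed by 1.03-fold, while the VEC library of replicate 2 stood 2.40-fold above that of replicate 1. The smaller increase in replicate 2 thus went with a higher level in its VEC library, and which part the type of RNA has in this was not tested. As a difference in CPM, the gain was 109 CPM in replicate 1 and 62.3 CPM in replicate 2.

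Over both replicates VHL rose by 1.36 ± 0.23 on the log2 scale (SE, n = 2 per group, 95% interval 0.92 to 1.81) in edgeR's quasi-likelihood test with the replicate number as a block (Benjamini-Hochberg adjusted p = 4.63e-07). Of 24417 genes tested, 3.1% were called in this fit at an adjusted p under 0.05, 0.749% as higher and 2.35% as lower in VHL. VHL ranked 186 by size of increase. The mean of the 2 within-replicate changes was 1.37 ± 0.86 (SD, n = 2), so the replicates differed widely. The SE of the fit is not a like measure, and it takes its error from a trend over all genes. Without the block the change was 1.24 ± 0.64 (SE) and was not called (adjusted p = 0.999991, edgeR). That fit called 0 of all genes, with 22 at an unadjusted p under 0.05. DESeq2's Wald test with the block called VHL too (adjusted p = 0.0354) and called 1215 genes in all. Of these, 391 were among the 756 genes called by edgeR with the block. In bulk RNA a higher share of cells with a transcript and more transcript per cell cannot be told apart.

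**Figure D1:**
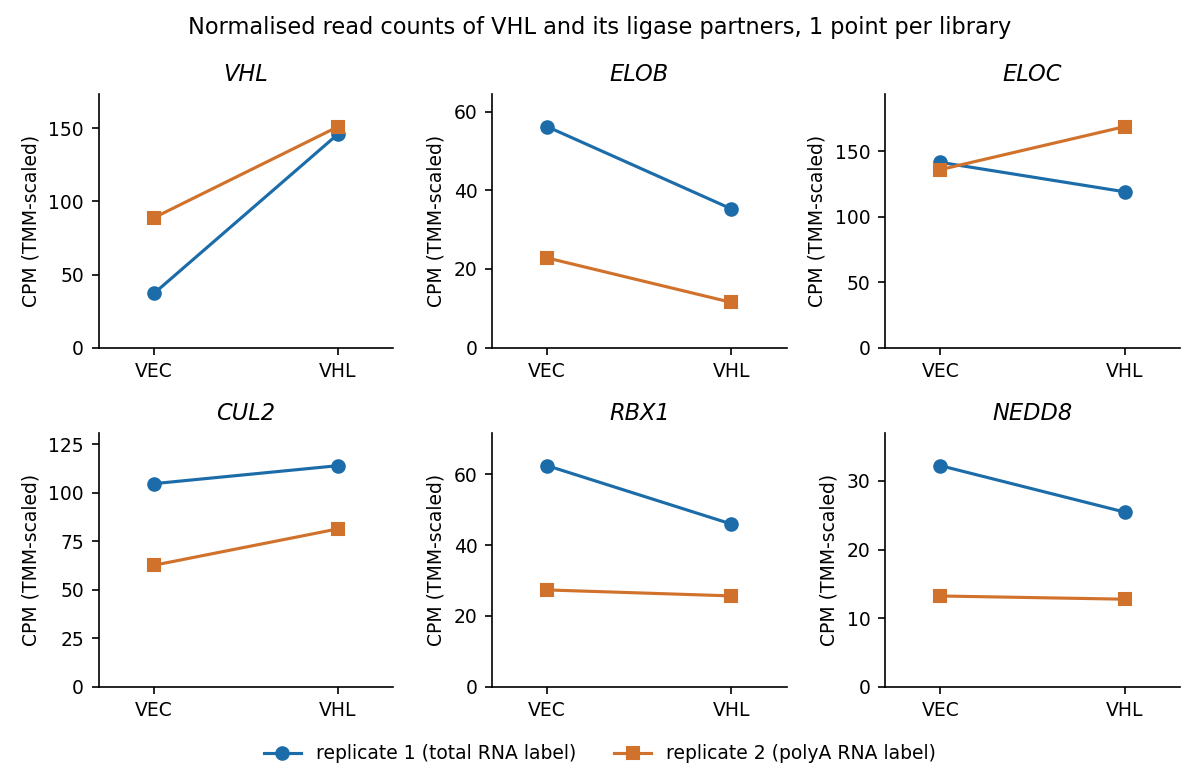
TMM-scaled CPM (vertical axes, from 0) of the 6 genes in VEC and VHL libraries, 1 point per library, with lines joining libraries of the same replicate number. VHL is higher in both VHL libraries, ELOB is lower in both, and ELOC moves in opposite directions in the 2 replicates.

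The partners did not rise with VHL to a like extent. None of the 5 was called higher, and 1, ELOB, was called lower. Of all genes tested, 0.749% were called higher and 2.35% lower. At so low a share, the lack of higher calls says little about 5 genes. The blocked fit gave log2 changes between -0.83 and 0.25 for the 5, with a median of -0.20, against a median of -0.03 over all genes tested. The 95% intervals of all 5 lay below the interval of VHL, the highest upper bound among them being 0.67 for CUL2. These intervals take their error from the trend over all genes. That of VHL (0.92 to 1.81) held neither of its within-replicate changes, 1.98 in replicate 1 and 0.77 in replicate 2.

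ELOB was the elongin with a call. For ELOB, the ubiquitin-like elongin subunit, replicate 1 gave 56.2 CPM with VEC against 35.3 CPM with VHL (1300 and 658 counts), and replicate 2 gave 22.8 against 11.5 CPM (1040 and 470 counts). It was lower in VHL within both replicates, although the VEC level of replicate 2 lay under the VHL level of replicate 1, so the groups overlapped across replicates. The ratio of VHL to VEC was 0.628 in replicate 1 (95% counting interval 0.571 to 0.690) and 0.505 in replicate 2 (0.452 to 0.563). ELOB fell by 0.83 ± 0.22 on the log2 scale in the blocked fit (SE, n = 2 per group, 95% interval -1.27 to -0.39, adjusted p = 0.0124, edgeR). Its changes within the replicates, -0.67 and -0.99, had a mean of -0.83 ± 0.22 (SD, n = 2). Without the block the change was -0.76 ± 0.98 (SE, adjusted p = 0.999991, edgeR) and was not called.

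For ELOC, the subunit that touches VHL directly, the values were 142 CPM with VEC against 119 CPM with VHL in replicate 1 (3279 and 2223 counts), and 136 against 169 CPM in replicate 2 (6207 and 6900 counts). It was lower in VHL in replicate 1 and higher in replicate 2. The log2 changes were -0.25 (counting interval -0.33 to -0.17) and 0.31 (0.26 to 0.36), so they had opposite signs beyond counting error. The blocked fit gave 0.03 ± 0.22 (SE, 95% interval -0.41 to 0.47, adjusted p = 0.992, edgeR), and no change was detected over both replicates.

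The scaffold and the RING subunit also gave no call. CUL2 stood at 105 CPM with VEC against 114 CPM with VHL in replicate 1 (2422 and 2125 counts), and at 62.6 against 81.3 CPM in replicate 2 (2854 and 3322 counts). It was the partner with the highest value of change, 0.12 and 0.38 on the log2 scale within the replicates and 0.25 ± 0.22 in the blocked fit (SE, 95% interval -0.17 to 0.67, adjusted p = 0.776, edgeR). Both VHL libraries stood above the VEC library of the same number, and the groups overlapped across replicates. RBX1 stood at 62.4 CPM with VEC against 45.9 CPM with VHL in replicate 1 (1445 and 857 counts), and at 27.3 against 25.6 CPM in replicate 2 (1246 and 1047 counts). It was lower with VHL in both, by far less in replicate 2. Its log2 changes were -0.44 (counting interval -0.57 to -0.32) and -0.09 (-0.21 to 0.03), and the blocked fit gave -0.27 ± 0.22 (SE, 95% interval -0.69 to 0.15, adjusted p = 0.745, edgeR). The difference in replicate 2 was within counting error with TMM, but not with library totals (-0.15, interval -0.27 to -0.03) or protein-coding totals (-0.28, -0.40 to -0.16).

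NEDD8, the modifier of the cullin, had the fewest counts of the 6 in 3 of the 4 libraries. Its values were 32.2 CPM with VEC against 25.5 CPM with VHL in replicate 1 (746 and 475 counts), and 13.2 against 12.8 CPM in replicate 2 (603 and 521 counts). The groups overlapped across replicates. Within the replicates it changed by -0.34 and -0.05 on the log2 scale, the second of which lay within counting error with TMM (-0.22 to 0.12). With protein-coding totals it was -0.24 and beyond counting error (-0.41 to -0.07). The blocked fit gave -0.20 ± 0.24 (SE, 95% interval -0.67 to 0.28, adjusted p = 0.898, edgeR). The readthrough symbol NEDD8-MDP1, whose exons overlap those of NEDD8, held between 3 and 6 counts per library.

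**Figure D2:**
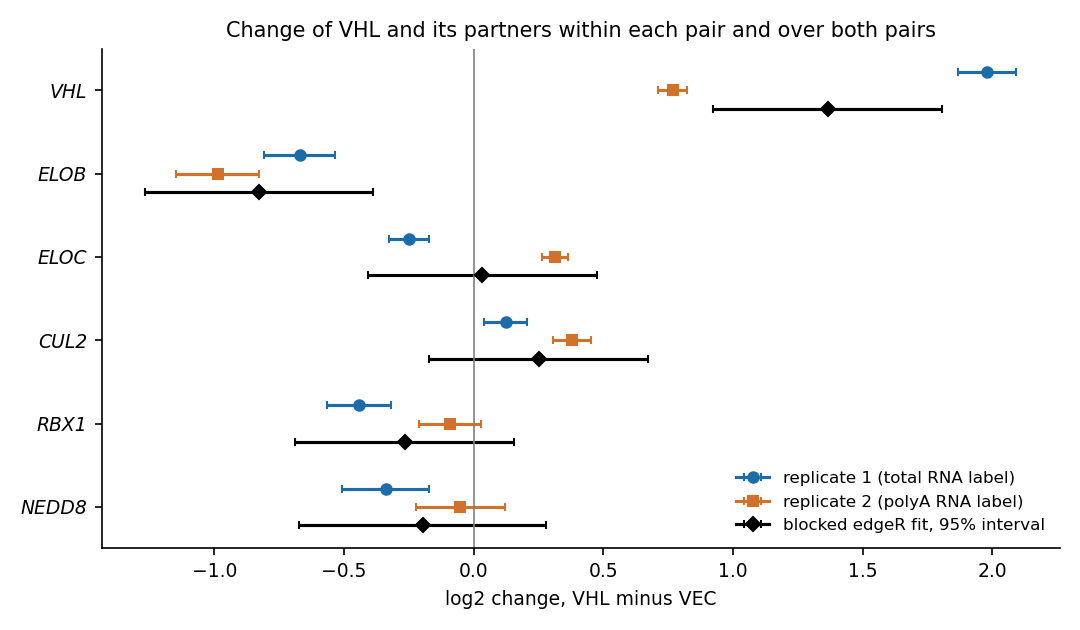
Log2 change of VHL against VEC (horizontal axis) for each gene, within replicate 1 and replicate 2 with 95% exact binomial counting intervals, and in the blocked edgeR fit with its 95% interval. VHL lies right of 0 and ELOB left of 0 in all 3, and the other 4 fitted intervals include 0.

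The change of VHL relative to each partner was larger in replicate 1 than in replicate 2. Relative to CUL2, VHL gained 1.86 on the log2 scale in replicate 1 (95% counting interval 1.72 to 2.00) and 0.39 in replicate 2 (0.30 to 0.48). Relative to ELOC it gained 2.23 (2.09 to 2.36) and 0.45 (0.38 to 0.53). Relative to ELOB, which moved the other way, it gained 2.65 (2.48 to 2.82) and 1.75 (1.59 to 1.92). For RBX1 the values were 2.42 and 0.86, and for NEDD8 2.32 and 0.82. The ratio of VHL to every partner was therefore higher in the VHL library of both replicates, by 1.31-fold (CUL2 in replicate 2) to 6.28-fold (ELOB in replicate 1). These ratios do not depend on the scaling of the libraries, and their spread between replicates, with 1 library per group in each, was not tested.

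The scaling moved the changes of single genes. With protein-coding totals in place of TMM, VHL changed by 0.58 in replicate 2, ELOB by -1.17, ELOC by 0.12, CUL2 by 0.19, RBX1 by -0.28 and NEDD8 by -0.24 on the log2 scale. In replicate 1 CUL2 changed by 0.21 in place of 0.12 and ELOC by -0.16 in place of -0.25. All directions were the same as with TMM.

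Reads that fall in copies of a gene bear on these values, since most partners have processed pseudogenes. By symbol there were 33 copies of ELOC, 4 of ELOB, 2 of RBX1, 1 of NEDD8 and 0 of CUL2, and VHLL is a copy of VHL. In replicate 1, copies held 2.29% (VEC) and 2.63% (VHL) of the summed counts of ELOC and its copies, and in replicate 2 they held 47.4% and 41.5%. For ELOB the shares were 0.230% and 0.303% in replicate 1, and 43.8% and 43.6% in replicate 2. NEDD8P1 had 0 counts in both replicate 1 libraries, and 23.0% and 17.7% of its sum with NEDD8 in replicate 2. RBX1 copies held at most 2.06% in any library. Copies thus took a large part of the counts of 3 partners in replicate 2 alone.

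Copies of ELOB had fewer counts with VHL in replicate 2 and were not called. ELOBP1 went from 406 to 217 counts and ELOBP2 from 402 to 146 counts from VEC to VHL in replicate 2, where ELOB went from 1040 to 470. Both copies were at 0 in replicate 1, so these values rest on 1 library per group (adjusted p = 0.647 and 0.212, edgeR with the block). VHLL had 14 counts with VEC against 45 with VHL in replicate 2, and 0 in both replicate 1 libraries. It did not pass the filter on low counts. When the counts of copies were added to their parents, the blocked fit gave -0.83 ± 0.22 (SE) for ELOB (adjusted p = 0.00829, edgeR), 1.37 ± 0.23 for VHL (adjusted p = 3.91e-07, edgeR) and -0.04 ± 0.23 for ELOC (adjusted p = 0.992, edgeR). In replicate 2 the change of ELOC with its copies was 0.16 on the log2 scale, against 0.31 for ELOC alone. How the counting treated reads that map to several places is not given in the sources used here.

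**Figure D3:**
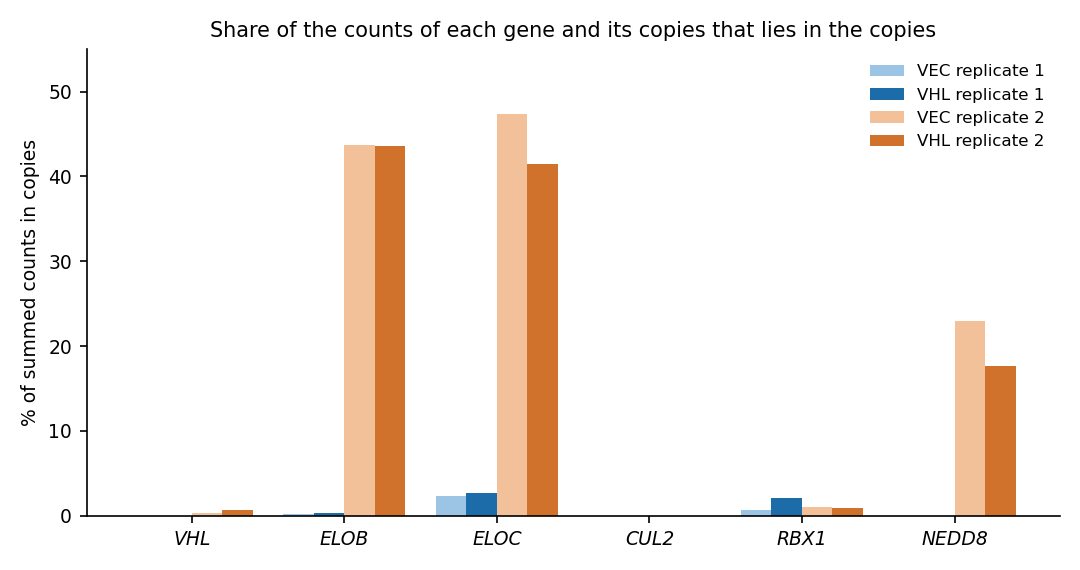
Percentage of the summed counts of each gene and its copies that was counted in the copies (vertical axis, from 0), with 1 bar per library. In replicate 2, copies hold 47.4% and 41.5% for ELOC, 43.8% and 43.6% for ELOB and 23.0% and 17.7% for NEDD8, and in replicate 1 they hold at most 2.63% for any gene.

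The levels of ELOB, RBX1, NEDD8 and CUL2 differed more between the replicate numbers than between VEC and VHL. The level in replicate 2 was 0.406 times that in replicate 1 for ELOB in VEC and 0.326 times in VHL. For RBX1 it was 0.438 and 0.558 times, for NEDD8 0.410 and 0.501 times, and for CUL2 0.598 and 0.714 times. ELOC stood at 0.961 times in VEC and 1.42 times in VHL. Levels were not compared between genes, because transcript lengths were not used here.

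The stretch before the start of ELOB, the partner that fell, is shown with that of RBX1, the partner with the next lowest fitted change, to set the 2 promoters side by side. Capitals mark matches to ACGTG or GCGTG on either strand (on the opposite strand these read CACGT and CACGC), the core letters of HIF binding elements. The windows are the 250 bases before the RefSeq start on GRCh38.p14, a later build than the hg19 of the counts, at chr16:2777281-2777530 (minus strand) and chr22:40951128-40951377 (plus strand).
ELOB: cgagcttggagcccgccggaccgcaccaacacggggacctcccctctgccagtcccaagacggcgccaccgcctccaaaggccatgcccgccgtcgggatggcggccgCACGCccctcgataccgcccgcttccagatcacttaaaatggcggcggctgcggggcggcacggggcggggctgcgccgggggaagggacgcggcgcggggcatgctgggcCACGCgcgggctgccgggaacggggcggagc
RBX1: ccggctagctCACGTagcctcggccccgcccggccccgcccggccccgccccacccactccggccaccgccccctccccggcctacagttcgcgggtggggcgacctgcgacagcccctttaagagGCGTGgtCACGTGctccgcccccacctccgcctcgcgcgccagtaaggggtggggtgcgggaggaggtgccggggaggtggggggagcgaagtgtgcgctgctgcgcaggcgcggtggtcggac
The ELOB window held 2 matches, both of GCGTG on the opposite strand. The RBX1 window held 4 matches, 3 of ACGTG and 1 of GCGTG, with an overlapping pair that is 1 palindrome. The windows of CUL2 and NEDD8 held 0. Of 27305 promoter windows of the same length, 43.1% held at least 1 match and 19.5% at least 2. A match describes the letters alone, and no binding was measured.

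The enzymes that load and remove NEDD8 gave no calls in the blocked edgeR fit. Of all genes tested 3.1% were called, so lists this short would hold few calls or none at that share. Of 9 neddylation enzymes tested, 0 were called, 6 had values above 0, and the median log2 change was 0.11. DCUN1D1, which helps transfer NEDD8 to cullins, had the largest value, 0.40 and 0.56 within the replicates and 0.48 ± 0.22 in the blocked fit (SE, adjusted p = 0.317, edgeR), and was called by DESeq2 with the block. Of 14 genes of the COP9 signalosome, which strips NEDD8 from cullins, of cullin exchange (CAND1, CAND2) and of NEDD8 processing or turnover (SENP8, UCHL3, NUB1), 0 were called and the median was -0.09. The largest value was that of CAND2, at 1.34 ± 0.88 (SE, adjusted p = 0.618, edgeR), which rests on 10 and 24 counts in replicate 1 and 2 and 3 in replicate 2. Among 8 genes, 7 other cullins and RNF7, the RING partner of CUL5, 0 were called, with CUL7 at -0.45 ± 0.24 (SE, adjusted p = 0.421, edgeR).

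Receptors that compete for the same core gave few calls, as did all genes tested, of which 3.1% were called. Of 12 other CUL2 receptors, 10 were tested and 0 called, with KLHDC2, which recognises protein ends, at -0.48 ± 0.21 (SE, adjusted p = 0.263, edgeR). DESeq2 with the block called KLHDC2. PRAME had 0 counts in all libraries. Of 22 elongin-binding receptors of the CUL5 and elongin A type, 19 were tested and 1 was called (5.26%). This was SOCS4, a SOCS-box protein, at 64.2 CPM with VEC against 84.5 CPM with VHL in replicate 1 and 54.5 against 106.9 CPM in replicate 2. It rose by 0.69 ± 0.22 on the log2 scale (SE, n = 2 per group, adjusted p = 0.0472, edgeR), and was not called when no filter on low counts was used.

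Ubiquitin enzymes, VHL-binding deubiquitinases and the folding machinery of VHL gave no calls in the blocked edgeR fit either. These lists too are short beside the 3.1% of all genes tested that were called. Of 11 ubiquitin E1, E2 and ARIH genes 0 were called, and CDC34, an E2 of cullin ligases, had the largest value at -0.82 ± 0.32 (SE, adjusted p = 0.161, edgeR). USP33, a deubiquitinase bound by VHL, changed by 0.29 ± 0.22 (SE, adjusted p = 0.703, edgeR). The CCT chaperonin folds newly made VHL. All 8 of its genes had fitted values above 0, with a median of 0.19, and 6 had the same sign in both replicates, and 0 were called. The smallest values were 0.0048 for CCT3 and 0.010 for CCT2. Of 13908 protein-coding genes tested, 7094 had values above 0 and 8638 had the same sign in both replicates. Whether the 8 genes moved together was not tested. TCP1 had the largest value, 0.18 in replicate 1 and 1.26 in replicate 2 (blocked 0.72 ± 0.26, SE, adjusted p = 0.112, edgeR). TCP1 was called in edgeR with DESeq2 size factors, with library totals and with protein-coding genes alone, and CCT4 was called by DESeq2 with the block.

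The genes next to VHL on chromosome 3 gave no call, where 3.1% of all genes tested were called. FANCD2, BRK1, IRAK2 and TATDN2 had blocked log2 changes between -0.48 and 0.35, and the lowest was that of BRK1, an actin regulator that lies beside VHL (adjusted p = 0.363, edgeR). The largest was that of IRAK2, a kinase of interleukin-1 signalling, whose 95% interval (-0.32 to 1.02) overlapped that of VHL. IRAK2 had only 15 (VEC) and 22 (VHL) counts in replicate 1, with a log2 change of 0.81. In replicate 2 it had 751 and 752 counts, with a change of 0.16.

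HIF subunits and HIF hydroxylases held most of the calls. Of 8 genes, among them the beta subunit ARNT and the asparaginyl hydroxylase HIF1AN, 7 were tested and 3 called. EGLN3 fell by 1.95 ± 0.22 (SE, adjusted p = 1.55e-15, edgeR) and EGLN1 fell by 1.10 ± 0.24 (SE, adjusted p = 0.000389, edgeR), both of them prolyl hydroxylases. HIF1A, a HIF alpha subunit, rose by 1.10 ± 0.22 (SE, adjusted p = 0.000103, edgeR), with 112 against 213 CPM in replicate 1 and 41.5 against 100.2 CPM in replicate 2. Over all these pathway lists, 4 of 92 tested genes (4.35%) were called, and 1 of 85 (1.18%) without the HIF list. Of all genes tested 3.1% were called, and of the protein-coding genes among them 3.65%. The 85 genes include the chaperonin and the neighbours of VHL and leave out the 6 ligase genes themselves. The lists were not tested as sets.

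**Figure D4:**
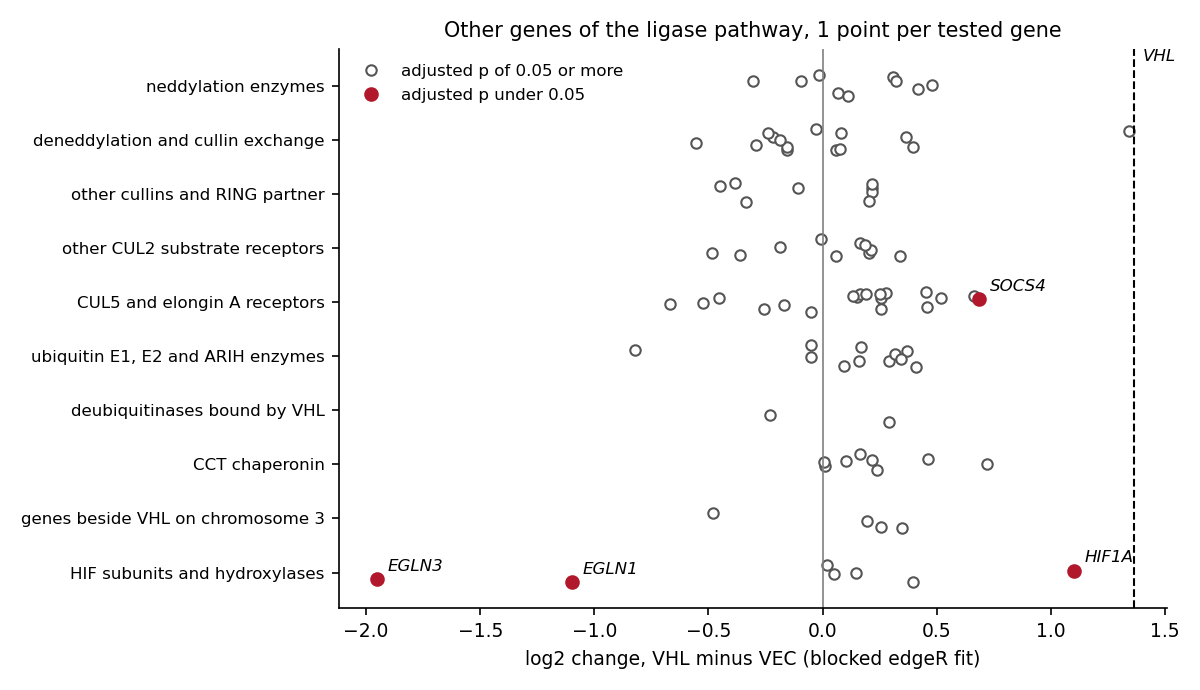
Log2 change of VHL against VEC in the blocked edgeR fit (horizontal axis) for the tested genes of each list, 1 point per gene, filled where the adjusted p was under 0.05. The dashed line marks VHL at 1.36, and the 4 filled points are SOCS4, EGLN1, EGLN3 and HIF1A.

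The genes whose changes lay nearest to those of VHL were sought among 11329 protein-coding genes that averaged 100 counts or more. Likeness was the Euclidean distance between the log2 changes in replicates 1 and 2, over 4 libraries. The 5 nearest were PRRT3, TEDDM1, SLCO3A1, GK3P and MACC1, at distances of 0.14, 0.14, 0.23, 0.24 and 0.28. Of these, 4 had at most 6 counts in each replicate 1 library. The exception was SLCO3A1, with 15 and 45 counts in replicate 1 and 152 and 211 in replicate 2 (blocked 1.10 ± 0.43, SE, adjusted p = 0.181, edgeR). None of the 5 was called in the blocked fit.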

How the data were processed

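RNA values were the authors' deposited raw counts per gene symbol, from alignments to hg19 per the file headers. The submitters' processing notes name featureCounts and HOMER. Not given in the sources used here are the aligner, the annotation, the strand setting and the handling of multi-mapping reads. The H3K27ac tables were not used, because their regions carry no positions and cannot be assigned to these genes.

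The 2 VEC and 2 VHL libraries of UM-RC-2 were compared with edgeR 4.0.16 (R 4.3.3). Of 43682 symbols, 24417 passed filterByExpr and were fitted after TMM scaling (glmQLFit, glmQLFTest, two-sided) with the replicate number as a block, and p-values were adjusted over all of them by the Benjamini-Hochberg method. Calls had an adjusted p under 0.05. The block was used because both libraries of a number share the RNA type on their labels (total RNA or polyA RNA). Same-numbered libraries also deviated together from the group means (r = 0.983 across 21673 genes). Only 1 residual degree of freedom was left, and the error came from the trend over genes. The fit with group as the only term and DESeq2 1.42.0 were alternatives. SE were taken from the log2 change and its F statistic. Within-replicate ratios had 95% exact binomial intervals, for counting error only. CPM changes across all genes used a prior count of 2. Biotypes were looked up in RefSeq (GRCh38.p14), where 97.8% of symbols matched, and promoter sequences from RefSeq (4 of the 6 genes were used).

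The 6 genes and all lists were chosen with earlier results of these data known. Genes were named by a rule: the 6, the called genes of each list (or the largest change where none was called), copies of the 6 by symbol, the 5 nearest patterns, and CA9.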

Additional observations from a re-analysis of the deposited data

Results flagged for a closer look

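ELOC moved in opposite directions in the total RNA and the polyA RNA libraries. Its log2 change of VHL against VEC was -0.25 in replicate 1 and 0.31 in replicate 2, each beyond counting error. With 1 library per group in each replicate, the difference was not tested.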

How the results depend on the processing

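Under the 6 other blocked fits set in advance, VHL changed by between 1.33 and 1.37 on the log2 scale (adjusted p from 3.75e-11 to 0.0354) and ELOB by between -0.86 and -0.81 (adjusted p from 0.00225 to 0.0249), so both were called in each. With no replicate block (group as the only term) VHL changed by 1.24 and was not called, and 0 genes, 0 partners and 0 pathway genes were called. DESeq2's Wald test with the replicate block called 1215 genes (40.1% of them higher, against 24.2% in edgeR and 35.2% when protein-coding genes alone were tested) and 7 pathway genes, the 4 of edgeR with CCT4, DCUN1D1 and KLHDC2. Of the 1215 genes, 391 were among the 756 called in the main edgeR fit. TCP1 was gained under 3 of the other blocked fits, SOCS6 with protein-coding genes alone, and SOCS4 was lost with no filter. ELOC, with a fitted change of 0.03, changed sign to -0.0026 in DESeq2, to -0.0023 with DESeq2 size factors and to -0.041 when copies were added, an alternative chosen after seeing the data.

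Leaving out 1 library leaves the other replicate alone under the block, with no test, or 3 libraries with group as the only term, where the lone sample is assumed to vary like the others and the RNA type is mixed with the group. In the 3-library fits VHL changed by 0.74 without VEC replicate 1, 1.26 without VHL replicate 1, 2.04 without VEC replicate 2 and 1.14 without VHL replicate 2, and was called in none. Over both kinds ELOB changed by between -1.78 and 0.036, ELOC by between -0.26 and 0.31, CUL2 by between -0.062 and 0.64, RBX1 by between -0.81 and 0.39 and NEDD8 by between -0.83 and 0.53. Signs turned in 3-library fits alone apart from ELOC: for ELOB (0.036), RBX1 (0.39) and NEDD8 (0.53) without VEC replicate 1, for CUL2 without VHL replicate 1 (-0.038) or VEC replicate 2 (-0.062), and for ELOC (-0.26), RBX1 (0.020) and NEDD8 (0.15) without VHL replicate 2. Calls of genes, of partners and of pathway genes were 0 in these fits (1 to 11 genes at an unadjusted p under 0.05, edgeR).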
